A study of Mus musculus with 12 samples.

Results

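The response of brown fat to short cold was measured in wild-type (WT) mice, on 3 arrays of mice held at 4 °C for 4 h (cold) and 3 arrays of mice held at 22 °C (room temperature). These 6 arrays were chosen by the genotype and temperature in their labels and belong to a set of 12, whose other 6 come from Zbtb7b knockout (KO) mice at the same temperatures. All mice were male, 10 weeks old and fed standard chow, and the labels name no other allele or agent in the WT groups. At 22 °C mice already spend energy on heat, so the room-temperature group is a mildly cool baseline and not a state without thermogenic drive. In the titles the arrays are numbered as biological replicates and in another field as pools. How many animals an array stands for is therefore not known, and p-values speak of the spread among these samples alone. That other field also names liver and a different knockout, and the tissue was therefore checked on its markers.

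Brown adipocytes make heat by letting protons pass the inner mitochondrial membrane through uncoupling protein 1, encoded by Ucp1. In the cold, sympathetic nerves release noradrenaline, which raises cAMP through beta-adrenergic receptors, switches on lipolysis and, through cAMP-dependent kinases and the coactivator PGC-1alpha, the genes of heat production. The fuel is fatty acid from the cell's own droplets and from lipoproteins in the blood, and glucose.

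Signals are log2 values, so that a difference of 1 is a 2-fold change. The median signal over all probe sets was 2.67 to 2.75 on the WT arrays, and genes near that level are close to background. For genes with a group mean under 4, differences are given on the log2 scale without a fold. Arrays of the same WT group correlated at r = 0.977 to 0.985 over all probe sets (not independent of each other), and arrays of different temperature at 0.959 to 0.968. The first principal component of the 6 arrays held 77.5% of the variance, with the cold arrays at 30.5 to 34.3 and the room-temperature arrays at -33.3 to -30.3. The mean of 9 brown adipocyte markers was 9.37 to 9.49 at room temperature and 9.99 to 10.07 in the cold, whereas the mean of 12 hepatocyte markers was 3.17 to 3.40 on all 6 arrays. Of the 9 brown adipocyte markers 2 rose, the cold-responsive Elovl3 and Ppargc1a, and 1 fell. Only 4 of the 9 differences were above 0, with a median of -0.13, so the higher mean is not a rise of the markers as a set.

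Skeletal muscle RNA differed between the arrays. The mean of 21 muscle genes was 3.09, 6.26 and 2.93 on the room-temperature arrays and 5.05, 7.07 and 7.59 on the cold arrays, so that the groups overlapped. All 21 muscle genes had a difference above 0, with a median of 2.54, and 0 of them passed the test by limma, with 3 at an unadjusted p under 0.05. The muscle actin Acta1 was 4.50, 8.85 and 4.83 at room temperature and 7.54, 9.83 and 10.26 in the cold. With the muscle mean as a covariate 3654 genes passed, and 81% of the calls made without it remained. Of the genes named in what follows, this covariate ended the calls of Decr1, Angptl8, Slc27a2, Elovl6, Ciart, Nfil3 and Nrg4. It also ended those of Cirbp, Acot13, Angptl4, Gamt, Pdhx and Cd8a, and the adjusted p-values of all these were 0.0559 to 0.141. In bulk tissue, fewer cells of a type and less RNA per cell cannot be told apart.

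By the moderated test of limma with Benjamini-Hochberg adjustment over 22180 genes, 2082 genes (9.39%) rose in the cold and 1770 (7.98%) fell at an adjusted p under 0.05. These shares are the background over all genes for the lists that follow. Genes that are well expressed passed more often: of the 8475 whose signal averaged at least 5, 20% rose and 14.4% fell. Many lists hold mostly such genes, as with 22 of 22 heat shock and 24 of 26 fat synthesis genes. For these lists 20% and 14.4% are the closer background, and counts near these shares do not set a list apart. The 3 cold arrays lay on one side of the 3 room-temperature arrays for 36.8% of all genes and for 3833 of the 3852 that passed. The median change was a rise of 0.80 or a fall of 0.83 on the log2 scale, and 634 genes rose and 616 fell by at least 1. Tested against a change of 1.5-fold, 505 genes passed, among them 4 of the rises of the ATF4 list, 4 rises and 2 falls of the clock list and 1 fall of the fat synthesis list described further on. Very large changes ran upward, with 10 genes that rose by at least 4 and 0 that fell by that much. The median difference of all genes was -0.02, and Gapdh, a glycolytic gene often used as a reference, stood at 0.12 ± 0.11 (SE, n = 3 per group).

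Cold is known to act on brown fat through transcription factors that bind short DNA elements near gene starts. The sequences just before the start of 8 genes described further on are printed: 4 heat shock genes, the deiodinase Dio2 and the 3 Nr4a nuclear receptors. Each of the 8 holds the element searched for in it, whereas other heat shock genes that rose, such as Hspa4l and Ahsa1, hold none. They are from RefSeq on the mouse build GRCm38.p6, written 5′ to 3′ on the gene's strand and end at the base before the annotated start. Capitals mark the match searched on both strands, which was GAANNTTC, a minimal heat shock element, in the heat shock genes. In Dio2 it was TGACGTCA, the cAMP response element, and in the Nr4a genes its shorter form TGACG, which reads CGTCA on the other strand.
Hspa1b (chr17:34959239-34959388, minus strand): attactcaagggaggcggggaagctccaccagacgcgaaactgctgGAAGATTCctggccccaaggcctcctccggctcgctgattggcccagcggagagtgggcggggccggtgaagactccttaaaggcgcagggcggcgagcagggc
Hspa1a (chr17:34972157-34972306, minus strand): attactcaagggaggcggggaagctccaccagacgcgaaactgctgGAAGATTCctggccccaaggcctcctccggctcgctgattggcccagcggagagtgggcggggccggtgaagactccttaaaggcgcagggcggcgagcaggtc
Hspb1 (chr5:135887769-135887918, plus strand): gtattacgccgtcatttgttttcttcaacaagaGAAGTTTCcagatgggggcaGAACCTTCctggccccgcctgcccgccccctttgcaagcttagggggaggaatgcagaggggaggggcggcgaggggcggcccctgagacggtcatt
Hspe1 (chr1:55087998-55088147, plus strand): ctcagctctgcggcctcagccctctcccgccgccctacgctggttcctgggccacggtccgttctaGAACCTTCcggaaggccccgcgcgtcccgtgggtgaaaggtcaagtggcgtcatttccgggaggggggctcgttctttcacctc
Dio2 (chr12:90739039-90739188, minus strand): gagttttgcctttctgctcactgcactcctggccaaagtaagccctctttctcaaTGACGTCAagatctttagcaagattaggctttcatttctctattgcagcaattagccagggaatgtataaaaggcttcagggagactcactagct
Nr4a1 (chr15:101266596-101266845, plus strand): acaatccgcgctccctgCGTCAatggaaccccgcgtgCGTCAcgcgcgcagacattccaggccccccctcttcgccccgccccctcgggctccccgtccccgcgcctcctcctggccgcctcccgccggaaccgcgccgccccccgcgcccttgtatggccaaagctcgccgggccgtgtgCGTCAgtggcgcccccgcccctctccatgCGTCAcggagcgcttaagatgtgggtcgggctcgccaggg
Nr4a2 (chr2:57124004-57124253, minus strand): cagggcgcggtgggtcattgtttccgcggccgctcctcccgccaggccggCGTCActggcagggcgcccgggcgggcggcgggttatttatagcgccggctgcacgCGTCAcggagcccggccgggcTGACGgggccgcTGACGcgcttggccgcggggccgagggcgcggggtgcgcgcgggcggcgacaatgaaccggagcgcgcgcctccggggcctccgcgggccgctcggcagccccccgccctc
Nr4a3 (chr4:48045055-48045304, plus strand): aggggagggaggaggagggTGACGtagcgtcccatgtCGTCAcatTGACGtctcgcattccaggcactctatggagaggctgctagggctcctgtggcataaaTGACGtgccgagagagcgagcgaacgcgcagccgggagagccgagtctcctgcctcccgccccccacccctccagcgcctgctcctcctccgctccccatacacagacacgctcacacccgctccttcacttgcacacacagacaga
A match is a description of these letters and not a measured site. The windows of Hspa1a and Hspa1b, neighbouring genes on chromosome 17, agree at 149 of 150 bases (99.3%), with the GAANNTTC match starting 104 bases before the gene start in both. The matches start 117 and 97 bases before it in Hspb1 and 84 in Hspe1, and TGACGTCA starts 95 bases before it in Dio2. Over 300 bases from 250 before to 50 after the start, 10 of the 19 heat shock genes with a window (52.6%) held GAANNTTC, against 8.15% of the 16918 measured genes with a window. It was held by 8.29% of the genes that rose, 6.84% of those that fell and 8.27% of those that did not pass. TGACGTCA was held by 4.44% of the genes that rose, 2.66% of those that fell and 2.42% of those that did not pass. For TGACG, which is part of TGACGTCA, the shares were 40.6%, 30.2% and 24.8%. The windows of genes that rose and of genes that fell were also richer in G and C, with a median of 60.7% in each, than those of genes that did not pass (55.3%), and the part of base composition in these shares was not tested.

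The inducible thermogenic genes rose and Ucp1 did not pass the test. Dio2, which makes active thyroid hormone inside the brown adipocyte, had a signal of 8.30, 8.47 and 8.46 at room temperature and 11.66, 11.66 and 11.75 in the cold. The arrays of a group lay close together and the groups far apart, a 9.70-fold rise (log2 3.28 ± 0.21, SE, n = 3 per group, adjusted p = 4.46e-06). Ppargc1a, which encodes PGC-1alpha, had 9.15, 9.27 and 9.23 against 11.63, 11.49 and 11.50, a rise of 2.32 ± 0.12 (adjusted p = 1.11e-06). Elovl3, which elongates saturated very long chain fatty acids, had 6.07, 5.25 and 5.83 against 10.40, 10.43 and 10.73, a 28.0-fold rise (4.81 ± 0.32). In all 3 genes each cold array lay far above each room-temperature array. Ucp1 itself was 12.68, 12.41 and 12.50 at room temperature and 12.90, 12.95 and 12.81 in the cold. Its groups did not overlap, but the difference of 0.36 ± 0.14 did not pass (adjusted p = 0.101). It passed under 2 of 17 alternatives, adjustment over genes with a mean of at least 5 (0.045) and a trended, robust spread (0.0358). The highest signal of any probe set on these arrays was 13.37 to 13.51. Dio2 has another probe set, near background at an average of 2.32, whose difference was 0.64 (adjusted p = 0.143).

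**Figure D1:**
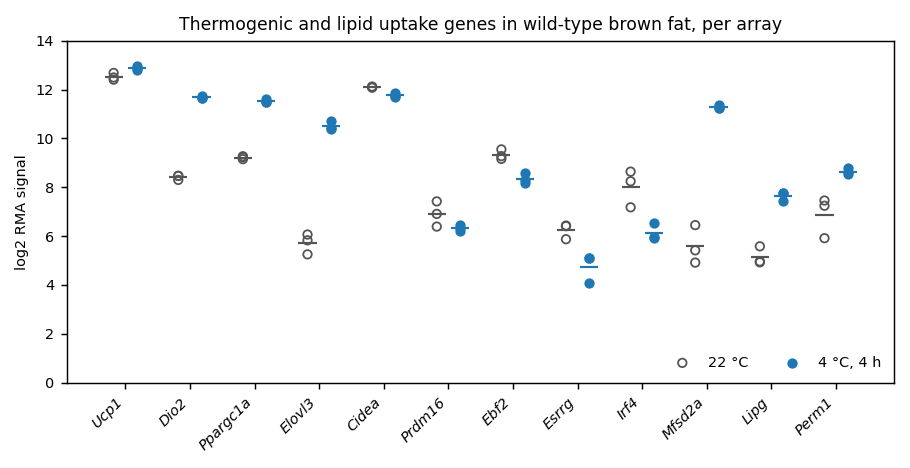
Log2 signal (vertical axis) of thermogenic, lipid uptake and mitochondrial regulator genes on each wild-type array, with open circles for 22 °C, filled circles for 4 °C and a short line at each group mean. Dio2, Ppargc1a, Elovl3 and Mfsd2a separate widely, Ucp1 and Cidea hardly move near the top of the scale, and Ebf2, Esrrg and Irf4 lie lower in the cold.

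Of 19 thermogenic genes 6 rose and 3 fell, with a median difference of -0.13. Besides the 3 above, Slc27a2, a fatty acid transporter and acyl-CoA synthetase, rose from a mean of 10.59 to 11.18, a call that was lost in 5 of the fits without 1 array. Fgf21, a secreted metabolic hormone, and the BMP family member Bmp8b rose from background levels, Fgf21 from 1.65, 2.03 and 1.91 to 3.21, 2.97 and 3.10. Apart from Ppargc1a, the transcription regulators on this list fell or did not pass. Ebf2, which helps to specify brown adipocytes, fell by 0.97 ± 0.14 (adjusted p = 6.64e-04), and Esrrg, an orphan receptor of oxidative genes, fell by 1.49 ± 0.29 (0.0036). Irf4, a partner of PGC-1alpha in the thermogenic response, had 8.25, 7.18 and 8.64 against 5.91, 6.54 and 5.95, a fall of 1.89 ± 0.50 (adjusted p = 0.0209). The Irf4 call did not pass without room-temperature replicate 1 (0.069) or 3 (0.0809) or cold replicate 1 (0.0723) or 3 (0.0713). Prdm16, a coregulator of brown fat identity, stood at -0.58 ± 0.21 (adjusted p = 0.0825) and passed under 4 of 17 alternatives (0.00871 to 0.0476). Cidea, a droplet protein that marks brown fat, stood at -0.33 ± 0.12 (0.0869, and 0.024 to 0.0466 under the alternatives where it passed). The cytochrome oxidase subunit Cox8b stood at -0.13 ± 0.13 (0.579). Adipocyte markers shared by white and brown fat were lower where they passed, with 0 of 9 that rose and 3 that fell, or 1 without room-temperature replicate 2 or cold replicate 1 or 3. Cebpa, a master factor of adipocytes, had 10.58, 10.23 and 10.16 against 7.80, 8.28 and 8.04, a 4.88-fold fall, while Pparg, its partner, stood at 0.13 ± 0.12 (0.561).

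Of 26 genes of adrenergic and cAMP signalling 6 rose (23.1%) and 5 fell (19.2%), with a median of 0.10. These shares lie near those of genes whose signal averaged at least 5 (20% and 14.4%). Adcy4, an adenylyl cyclase, rose 2.83-fold and Crem, a cAMP-responsive factor with repressor isoforms, by 0.90 ± 0.15. The regulatory subunits of protein kinase A changed in opposite directions, Prkar1a rising by 0.82 ± 0.14 and Prkar2b, the main adipocyte form, falling by 0.74 ± 0.14. Rgs2, a brake on G protein signalling, had 10.90, 11.11 and 11.56 against 9.38, 9.54 and 9.28, a 3.47-fold fall, and the cAMP phosphodiesterase Pde4a fell by 0.83 ± 0.14. The beta-adrenergic receptors were not analysed here, because no probe set carried their symbols alone.

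Immediate-early genes, which respond within minutes to cAMP and growth signals, had 4 of 25 that rose and 3 that fell after 4 h, with a median of -0.11. These shares, 16% and 12%, lie near those of genes whose signal averaged at least 5 (20% and 14.4%). The repressor Atf3 had 5.90, 6.07 and 6.46 against 8.27, 8.18 and 8.30, a 4.30-fold rise, and the AP-1 family members Maff and Fosl2 rose by 1.83 ± 0.29 and 1.02 ± 0.20. The growth response factors Egr3 and Egr1 fell by 2.60 ± 0.57 and 2.48 ± 0.62. The Egr1 call (adjusted p = 0.0161) did not pass without room-temperature replicate 1 (0.0679) or cold replicate 1 (0.0611) or 2 (0.0528). Fos was near background at room temperature, with 3.41, 2.44 and 2.58, and had 2.85, 2.66 and 4.47 in the cold, so that its difference of 0.52 ± 0.73 (0.721) rests on cold replicate 3.

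The 3 Nr4a orphan receptors, whose windows each held 4 TGACG matches, went 3 ways. Nr4a1 had 11.31, 11.49 and 11.68 against 10.29, 9.85 and 9.59, a fall of 1.58 ± 0.33 (adjusted p = 0.0061). Nr4a3 had 6.89, 7.59 and 8.01 against 9.78, 9.36 and 9.03, a rise of 1.89 ± 0.43 (0.00964). Nr4a2 had 8.99, 8.45 and 8.31 against 8.81, 8.89 and 8.49, which overlap (0.15 ± 0.41, 0.869). The feedback inhibitors of MAP kinase signalling were mostly higher, with 5 of 16 that rose and 1 that fell and a median of 0.40. Spry4 had 7.33, 7.16 and 6.89 against 9.01, 9.02 and 9.19, a 3.85-fold rise, and the phosphatases Dusp16, Dusp6 and Dusp8 rose by 2.04, 1.26 and 1.34. Spred2 rose by 0.74 ± 0.14. Dusp4 fell by 1.66 ± 0.49 (adjusted p = 0.0361), a call kept without room-temperature replicate 1 and lost in the other 5 fits without 1 array.

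Among the 23 genes of the PGC-1 network and mitochondrial biogenesis 6 rose and 3 fell. Pprc1, a growth-responsive relative of PGC-1alpha, rose by 1.10 ± 0.14, and the coactivator Ncoa1 by 1.16 ± 0.15. Perm1, a PGC-1 target best known in muscle, rose by 1.77 ± 0.36 (adjusted p = 0.00524), with 5.91, 7.24 and 7.46 against 8.79, 8.53 and 8.61. Esrrb rose by 0.81 ± 0.16 near background, and Ppargc1b stood at -0.18 ± 0.18 (0.577). In thyroid hormone signalling, where Dio2 makes the ligand, both receptor genes fell, Thra by 1.04 ± 0.12 (adjusted p = 1.26e-04) and Thrb by 0.84 ± 0.13 (7.54e-04). The receptor coactivator subunit Med1 rose by 0.79 ± 0.12, and the lipogenic thyroid target Thrsp fell by 1.24 ± 0.22.

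The largest rise among the genes named here was in a lipid transporter. Mfsd2a, which carries lysophosphatidylcholine with long-chain fatty acids into cells, had 5.42, 4.92 and 6.45 against 11.24, 11.23 and 11.37, a 51.4-fold rise (5.68 ± 0.33, adjusted p = 2.02e-06). Its cold arrays were nearly equal and lay far above all 3 room-temperature arrays. Lipg, the endothelial lipase that frees fatty acid from high-density lipoprotein, had 4.96, 4.93 and 5.58 against 7.77, 7.43 and 7.78, a 5.67-fold rise. Lipoprotein receptor genes fell: Vldlr by 1.56 ± 0.20, Lrp1 by 1.16 ± 0.19 and Scarb1 by 1.12 ± 0.24. Lipoprotein lipase, Lpl, stood at 0.30 ± 0.11 (adjusted p = 0.0745), and a second probe set with a mean of 8.36 rose by 0.70 (0.00249). The fatty acid receptor Cd36 stood at 0.08 ± 0.10 (0.672). Of 18 uptake genes 4 rose and 7 fell. The other 2 rises, Slc27a2 and the lipase inhibitor Angptl8 (0.69 ± 0.21), were each lost in 5 of the 6 fits without 1 array: 2 genes rose without room-temperature replicate 1 or any 1 of the cold replicates.

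**Figure D2:**
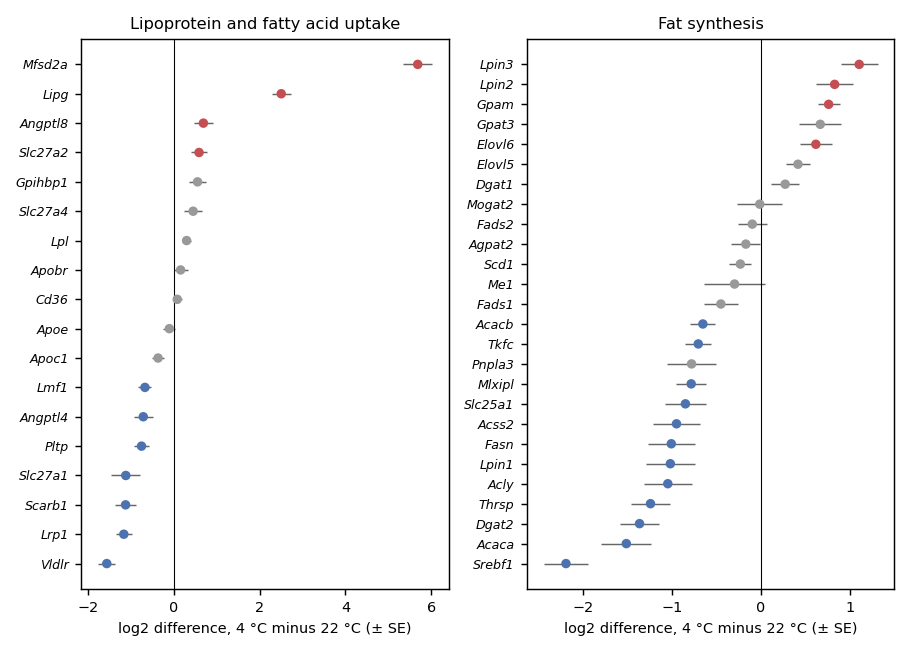
Log2 difference between 4 °C and 22 °C (horizontal axis, bars ± SE, n = 3 per group) for the measured genes of lipoprotein and fatty acid uptake and of fat synthesis, with red for genes that rose, blue for those that fell and grey for those that did not pass. Mfsd2a stands far above all other uptake genes at 5.68, and 12 of the 26 synthesis genes lie on the blue side.

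Lipolysis genes changed little at the level of the lipases and more among the droplet coat proteins. Pnpla2, which encodes adipose triglyceride lipase, stood at -0.21 ± 0.10 (adjusted p = 0.207), and Lipe, hormone-sensitive lipase, at -0.55 ± 0.17 (0.0505, with 7 of 17 alternatives between 0.0127 and 0.0484), with 9.84, 9.86 and 9.90 against 9.24, 9.44 and 9.27. Abhd5, the activator of Pnpla2, rose by 0.97 ± 0.13 (2.98e-04). Of the perilipins, Plin2 rose by 1.16 ± 0.21, Plin3 had 7.68, 7.94 and 8.21 against 5.72, 6.09 and 5.77, a 4.24-fold fall, and Plin1, which guards the droplet against lipase, fell by 0.53 ± 0.14 (0.0215). The Plin1 call was lost without room-temperature replicate 1 (0.0746) or 2 (0.0693) or cold replicate 1 (0.0702) or 3 (0.0737). In all, 2 of 18 genes rose and 2 fell, and 4 or 5 fell under 5 of the other settings, among them adjustment over genes with a mean of at least 5.

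Fatty acid oxidation genes were high on every array and 4 of 23 fell while 1 rose, with a median of -0.19. Cpt2, which releases acyl-CoA inside mitochondria, fell by 0.72 ± 0.12 and the isomerase Eci1 by 0.54 ± 0.12. Cpt1a, the entry step, fell by 0.64 ± 0.17 (adjusted p = 0.0216) and Decr1 by 0.41 ± 0.12 (0.0357). These last 2 calls were lost without room-temperature replicate 2 or cold replicate 1 or 2, where 2 genes of the list fell. The medium-chain dehydrogenase Acadm stood at -0.28 ± 0.16 (0.289), and the 1 rise, Bdh1, was near background.

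Of 26 fat synthesis genes 12 fell and 4 rose, with a median of -0.55. The rises numbered 2 without room-temperature replicate 1 or cold replicate 3, and with the muscle covariate. Srebf1, the factor that drives lipogenic genes, had 7.77, 8.04 and 7.89 against 5.43, 6.09 and 5.60, a 4.57-fold fall (2.19 on the log2 scale, adjusted p = 1.31e-04). Acaca, the committed step to malonyl-CoA, had 9.34, 10.10 and 9.84 against 8.10, 8.53 and 8.10, a 2.85-fold fall. Dgat2, which completes triglyceride from new fatty acid, fell by 1.36 ± 0.22, while Dgat1 stood at 0.27 ± 0.16 (0.283). The citrate lyase Acly fell by 1.05 ± 0.27, the synthase Fasn by 1.01 ± 0.26 and the phosphatidate phosphatase Lpin1 by 1.02 ± 0.28. These 3 calls were lost without room-temperature replicate 2 or 3 or cold replicate 1 or 3, and in each of those fits 7 genes of the list fell. The first acyltransferase step, Gpam, rose by 0.76 ± 0.12, and the elongase Elovl6 rose by 0.62 ± 0.18, a call lost in 5 of the 6 fits without 1 array. Scd1, the desaturase, stood at -0.23 ± 0.13 (0.257). In sterol metabolism 3 of 23 rose and 3 fell. The cholesterol exporter Abca1 fell by 1.68 ± 0.22, Dhcr7 by 1.19 ± 0.15 and Fdft1 by 1.11 ± 0.21, while Hsd17b7 and Sqle rose by 0.97 and 1.07. Without room-temperature replicate 2 the list had 1 rise, and Sqle was among the calls lost (adjusted p = 0.0529).

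Some fatty acid genes outside these lists were among the 15 largest rises. Elovl4, an elongase of very long chain polyunsaturated fatty acids, had 2.94, 2.15 and 2.96 against 6.72, 6.32 and 6.73 (3.91 ± 0.32). Acot5, a peroxisomal acyl-CoA thioesterase, had 2.63, 2.43 and 2.10 against 6.11, 6.30 and 6.37 (3.88 ± 0.28). Both went from the background level to a clear signal on every cold array. Dhrs9, a short-chain retinol dehydrogenase, had 7.03, 5.95 and 6.05 against 11.04, 10.90 and 11.15, a 25.7-fold rise, and the tight junction gene Cldn1 rose 26.5-fold. The largest fall was in Hcar1, the lactate receptor that restrains lipolysis, with 8.95, 8.91 and 8.56 against 4.56, 6.23 and 4.72, a 12.5-fold fall (3.64 on the log2 scale, adjusted p = 4.96e-05). Trarg1, which helps insulin-driven trafficking of the glucose transporter, had 11.38, 11.77 and 11.30 against 8.68, 9.61 and 8.78, a 5.52-fold fall. Fam13a, a gene linked to adipocyte fat storage, fell 7.17-fold. The chloride channel Ano1 fell 8.44-fold and P2rx5, an ATP-gated channel used as a brown fat marker, 5.21-fold. Lrrc52 and Cend1 were further rises of over 3 on the log2 scale, and Rasl12, Nav2, Zfp395, Slc26a10, Mblac2 and Speer4cos were further falls of 2.41 to 2.73.

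Of 26 glucose genes 3 rose and 4 fell. Pfkp, a phosphofructokinase at the control step of glycolysis, had 8.14, 7.86 and 8.06 against 9.81, 9.68 and 9.74, a 3.30-fold rise. The basal transporter Slc2a1 rose by 0.86 ± 0.18 on its bright probe set, whereas a second one near background stood at -0.25, and the mean of both did not pass (0.31, adjusted p = 0.222). The lactate transporter Slc16a1 rose by 0.76 ± 0.15. The insulin-responsive transporter Slc2a4 fell by 0.53 ± 0.13, a call lost without room-temperature replicate 2 (0.0622) or cold replicate 3 (0.0604). Glycogen synthase Gys1 fell by 0.79 ± 0.11 and the liver-type phosphorylase Pygl by 1.13 ± 0.30. The count of falls was 1 without room-temperature replicate 2 or cold replicate 3, and 2 without room-temperature replicate 3 or cold replicate 2.

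At the entry to the tricarboxylic acid cycle the phosphatase Pdp2, which activates pyruvate dehydrogenase, rose by 1.02 ± 0.16. Pdk2, a kinase that blocks it, fell by 0.77 ± 0.13. Pdk4, the fasting-induced kinase, was at 12.07 to 12.26 on all 6 arrays, with a difference of 0.02 ± 0.12 (adjusted p = 0.939) whose sign turned under other scalings. In total 2 of 29 genes of pyruvate dehydrogenase and the cycle rose and 1 fell. The other rise, Pdhx, a structural subunit of the complex (0.47, adjusted p = 0.0258), was lost without room-temperature replicate 1 or any 1 cold replicate (0.0666 to 0.0981), where the list had 1 rise, and without room-temperature replicate 1 it had 2 falls. Of 41 nuclear genes of oxidative phosphorylation 0 rose and 0 fell by limma, with 4 at an unadjusted p under 0.05, and 2 fell and 1 rose when only genes with a mean of at least 5 were tested. Their list mean was 10.01 to 10.07 at room temperature and 9.87 to 9.98 in the cold, and 8 of the 41 differences were above 0. The lowest p belonged to Cox7c (0.37 ± 0.12, adjusted p = 0.0598), followed by Ndufs4 (-0.51 ± 0.18, 0.0751). Under the alternatives where they passed, adjusted p was 0.0226 to 0.0472 for Cox7c and 0.0286 to 0.0464 for Ndufs4.

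Insulin signalling genes had 2 of 23 that rose and 3 that fell, with 1 rise without room-temperature replicate 1 or any 1 cold replicate. Pik3r1, the regulatory subunit of phosphoinositide 3-kinase, fell by 1.19 ± 0.24 and the adipocyte kinase Akt2 by 0.89 ± 0.19, while Foxo1, the factor that insulin restrains, rose by 0.59 ± 0.14 (adjusted p = 0.0116, 0.0524 without cold replicate 1). Trib3, a pseudokinase that binds Akt, rose by 1.08 ± 0.26 (0.0137), a call lost without room-temperature replicate 1 or cold replicate 2 or 3 (0.0528 to 0.0559). Of 18 glucocorticoid targets 3 rose and 1 fell, and in the fits without 1 array 2 to 4 rose and 0 fell. The fall was that of Angptl4, a secreted inhibitor of lipoprotein lipase (-0.71 ± 0.22, adjusted p = 0.0437), a call lost in each of the 6 fits without 1 array (0.0829 to 0.134). Cdkn1a, a cell cycle inhibitor also induced by other stresses, rose 4.12-fold, and Fkbp5, a receptor cochaperone, had 4.34, 5.06 and 5.24 against 6.57, 6.50 and 6.23. Tsc22d3, the other rise (0.56), passed in 3 of the 6 fits without 1 array. The receptor gene Nr3c1 stood at -0.06 ± 0.13 (0.827).

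Heat shock genes rose together. Of 22 measured chaperones and their factors 21 rose and 0 fell, with a median of 1.71. The share that rose was 95.5%, against 9.39% of all genes and 20% of those whose signal averaged at least 5. The list mean was 7.28 to 7.40 at room temperature and 9.03 to 9.23 in the cold. These proteins refold damaged proteins, and their genes are classical targets of the heat shock factor. The HSP70 gene Hspa1b had 6.50, 6.08 and 7.09 against 11.54, 10.52 and 10.84, a 21.3-fold rise (4.41 ± 0.76, adjusted p = 0.00176). Its near-copy Hspa1a had 6.50, 7.43 and 6.28 against 10.91, 10.56 and 11.16, a 17.6-fold rise (4.14 ± 0.77, 0.00279). The arrays did not overlap in either, and since the transcripts are nearly identical their probes may not tell them apart.

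The partners of HSP70 and HSP90 rose as well. Hsph1, a nucleotide exchange factor of HSP70, rose 12.6-fold, from 5.98, 5.48 and 5.84 to 9.67, 9.23 and 9.38. Hspa4l rose by 2.45 ± 0.30, Chordc1, an HSP90 cochaperone, by 2.19 ± 0.44, and Hsp90aa1, inducible HSP90, by 2.42 ± 0.27. The HSP90 activator Ahsa1 rose by 1.83 ± 0.23 and Bag3, which routes clients to autophagy, had 9.33, 9.45 and 9.32 against 11.18, 11.06 and 11.13. Small heat shock proteins were included, with Hspb1 at 8.26, 8.27 and 7.76 against 10.06, 9.98 and 9.71 and Hspb8 rising by 2.10 ± 0.33. Hspe1, the mitochondrial cochaperonin, had 7.01, 7.25 and 7.14 against 8.39, 8.23 and 8.39. Of the others, the constitutive Hspa8 rose by 0.87 ± 0.15 (2.02 to 2.40 on its 3 dimmer probe sets), and the factor gene Hsf2 by 0.73 ± 0.15. Dnajb4, the exception, stood at -0.09 ± 0.18 (0.82). The test against a change of 1.5-fold kept 13 of these rises, and 18 to 21 rose in the fits without 1 array.

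**Figure D3:**
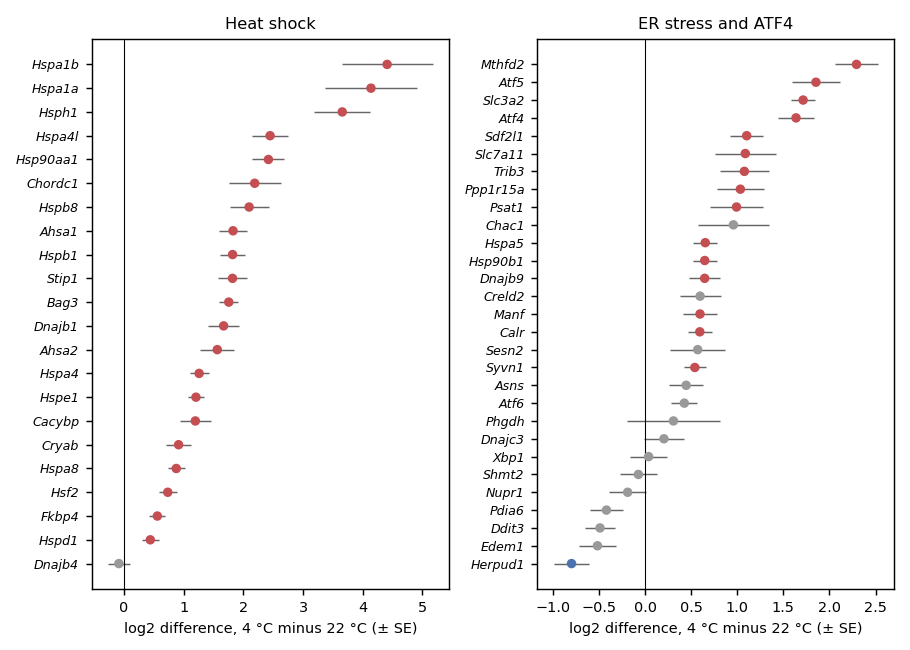
Log2 difference between 4 °C and 22 °C (horizontal axis, bars ± SE, n = 3 per group) for all measured heat shock genes and genes of the endoplasmic reticulum stress and ATF4 response, in red where they rose, blue where they fell and grey where they did not pass. All heat shock genes but Dnajb4 are red, and in the right panel Mthfd2, Atf5, Slc3a2 and Atf4 lead while Herpud1 is blue.

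In the endoplasmic reticulum stress and ATF4 list 15 of 29 genes rose (51.7%) and 1 fell, with a median of 0.60. The lead was taken by the ATF4 branch, which senses amino acid shortage and other stresses. Mthfd2, a mitochondrial enzyme of folate metabolism, had 4.24, 3.82 and 3.84 against 6.47, 6.09 and 6.22. Atf5 rose by 1.85 ± 0.26, Slc3a2, the heavy chain of amino acid transporters, by 1.71 ± 0.13, and Atf4 itself by 1.64 ± 0.20. The lumenal chaperones rose by smaller amounts, with Sdf2l1 at 1.10 ± 0.18 and Hspa5, known as BiP, at 0.65 ± 0.13. Ddit3, the death-linked factor of this response, stood at -0.49 ± 0.16 (adjusted p = 0.0611, with 5 of 17 alternatives between 0.0263 and 0.0447), and Herpud1, of protein degradation at the reticulum, fell by 0.80 ± 0.19. The Herpud1 call (0.0133) was lost without room-temperature replicate 2 (0.057) or 3 (0.054) or cold replicate 3 (0.0576).

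Of 32 proteasome genes 30 had a difference above 0, 12 rose and 1 fell, and the median was 0.39. The ATPase subunit Psmc4 had 9.19, 9.11 and 9.57 against 10.37, 10.22 and 10.30 (1.01 ± 0.16), and the lid subunits Psmd12 and Psmd7 rose by 0.85 ± 0.15 and 0.60 ± 0.12. Psmc2 rose by 0.83 ± 0.15 on its bright probe set, while a dim one stood at 0.48 (adjusted p = 0.123), and Psmc5 rose by 0.69 ± 0.15. Psmb1, a core subunit, fell by 0.38 ± 0.12 (0.0421) and was lost in 5 of the 6 fits without 1 array. The number of rises was 7 without room-temperature replicate 2 or cold replicate 1, and 0 against a change of 1.5-fold.

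Oxidant response genes had 6 of 22 that rose and 2 that fell, and 1 fell without any 1 array other than room-temperature replicate 3. Hmox1, the heme oxygenase, had 5.97, 4.47 and 5.27 against 10.20, 10.33 and 10.01, a 30.8-fold rise (4.94 ± 0.43, adjusted p = 2.72e-05). It was the third largest rise that passed among the genes named here. The sulfiredoxin Srxn1 rose by 1.56 ± 0.24, Txnrd1 by 0.93 ± 0.18 and the glutathione enzyme Gclc by 0.60 ± 0.14. Taldo1, of the pentose phosphate pathway, fell by 0.66 ± 0.13, and the list's median was -0.10.

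**Figure D4:**
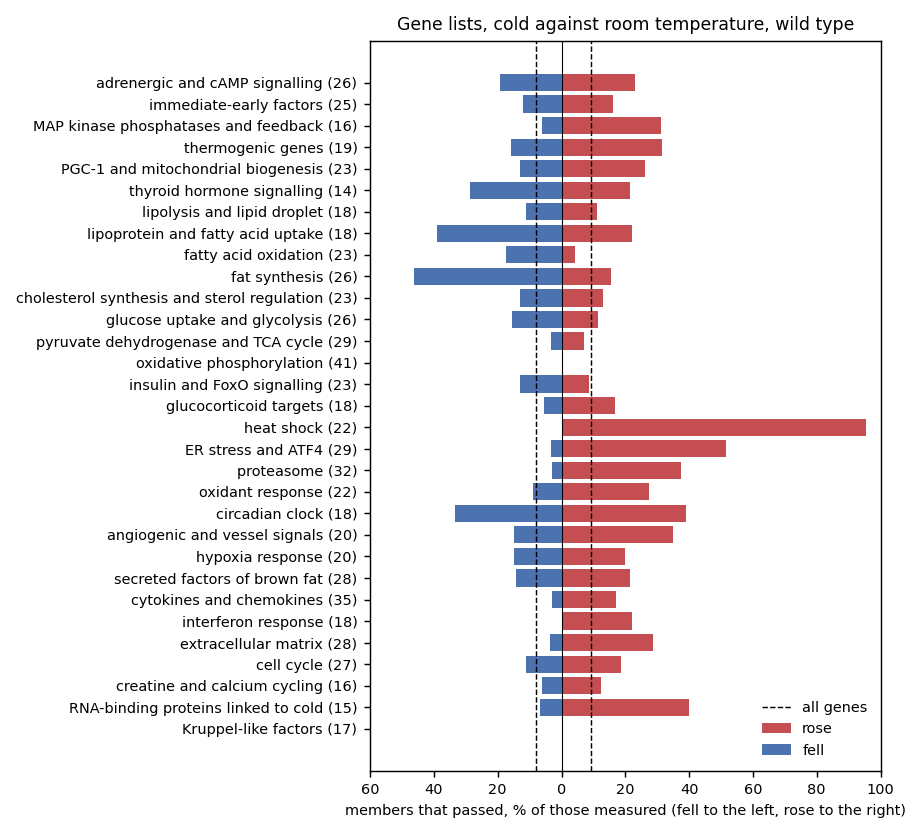
Share of measured members (horizontal axis, %) that rose (red, to the right) or fell (blue, to the left) in each pathway list, with the number measured in brackets and dashed lines at the shares over all genes, 9.39% and 7.98%. Among genes whose signal averaged at least 5, the shares were higher, 20% and 14.4%. Heat shock stands out on the right at 95.5%, fat synthesis reaches 46.2% on the left, the clock list is long on both sides, and oxidative phosphorylation and the Kruppel-like factors have no bar.

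The clock changed in both arms. The molecular clock is a feedback loop in which the activators ARNTL (BMAL1), CLOCK and NPAS2 drive the Per, Cry and Nr1d1 genes, whose products shut them off, and output factors such as DBP. Of 18 clock genes 7 rose and 6 fell. Arntl had 4.55, 2.33 and 3.95 against 8.67, 8.17 and 8.27 (4.76 ± 0.43, adjusted p = 3.47e-05), the fifth largest rise that passed among the genes named here. Npas2 had 3.23, 2.81 and 3.28 against 5.71, 5.55 and 4.98, and Clock 9.05, 8.92 and 8.88 against 10.33, 10.34 and 10.47. All 3 activator genes were thus higher on every cold array.

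On the other side, Per3 had 7.58, 7.72 and 7.86 against 5.30, 5.59 and 5.39, a 4.88-fold fall (2.29 on the log2 scale, adjusted p = 1.03e-05). The output factor Dbp fell by 1.96 ± 0.25, and its relatives Hlf and Tef fell by 1.02 ± 0.16 and 0.74 ± 0.13. Nr1d1, the repressor of Arntl, fell by 0.89 ± 0.18, while Cry1, a late repressor of the loop, rose by 1.96 ± 0.25. Per1 stood at 0.42 ± 0.16 (0.0975). Ciart (a rise of 1.25 ± 0.36), Nfil3 (a rise of 1.03 ± 0.32) and Bhlhe40 (a fall of 1.52 ± 0.41) each passed with all arrays and were lost in 5 of the 6 fits without 1 array. The number of rises was 4 without room-temperature replicate 3 or any 1 cold replicate, or with the muscle covariate. The labels used here give no hour of dissection for either group, so the time of day and the temperature cannot be told apart. This holds for the clock genes and for every other gene described here.

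**Figure D5:**
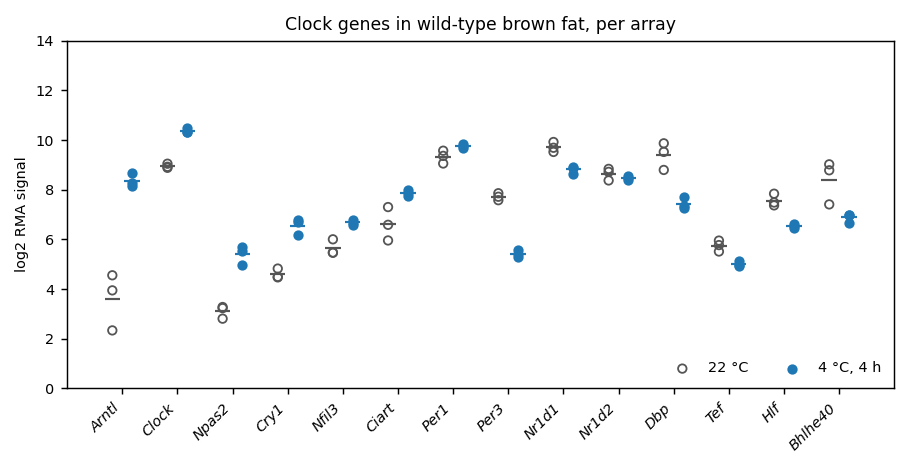
Log2 signal (vertical axis) of 14 clock genes on each wild-type array, with open circles for 22 °C, filled circles for 4 °C and a short line at each group mean. The activators on the left lie higher in the cold, Per3 and the output factors on the right lie lower, and Per1 and Nr1d2 hardly differ.

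Vessel signals changed strongly for a few ligands. Pgf, a ligand of the VEGF receptor Flt1, had 1.83, 1.80 and 2.71 against 5.29, 6.19 and 5.36 (3.50 ± 0.51). Angpt1, which stabilises vessels, had 6.41, 7.12 and 7.03 against 3.78, 3.47 and 4.24, a fall of 3.02 ± 0.28 (adjusted p = 3.60e-05), whereas its antagonist Angpt2 had 4.15, 3.90 and 4.42 against 5.58, 6.20 and 5.68. The receptors Aplnr, for apelin, and Tie1 fell, Aplnr from 8.66, 8.80 and 8.49 to 5.90, 5.65 and 6.53. Edn1, the vasoconstrictor endothelin, rose by 1.92 ± 0.18. Vegfa, which brown fat is known to secrete, stood at 0.17 ± 0.13 (0.443). Of 20 genes 7 rose and 3 fell, and the number of rises was 4 without room-temperature replicate 1 or 2 and 3 without cold replicate 2. The mean of 10 endothelial markers was 8.06 to 8.36 at room temperature and 8.33 to 8.39 in the cold, with 1 marker that rose, Pecam1 by 0.62 ± 0.13, and 1 that fell, Tie1. Of 10 mural and smooth muscle markers 4 fell and 0 rose, led by Cspg4, with 6.92, 6.37 and 6.51 against 5.14, 5.15 and 4.80, and 2 fell without room-temperature replicate 1 or cold replicate 1 or 2. The part of vessel cell content in the vessel signals was not tested.

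Of 20 hypoxia targets 4 rose (20%) and 3 fell (15%). These shares lie near the 20% and 14.4% of genes whose signal averaged at least 5, so the counts do not set the list apart. The collagen prolyl hydroxylase P4ha1 had 6.58, 6.77 and 6.98 against 9.62, 9.46 and 9.52, a 6.75-fold rise, and P4ha2 rose 2.30-fold. The mitophagy receptor Bnip3 fell by 0.90 ± 0.21 and the oxygen sensor Egln1 by 0.50 ± 0.12, both lost without cold replicate 3 (0.0531 and 0.0532). Hif1a stood at 0.21 ± 0.12 (0.283).

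Of 28 secreted factors of brown fat 6 rose and 4 fell. Metrnl, a hormone linked to beige fat, rose by 1.46 ± 0.22, and Fgf9 by 1.86 ± 0.20, both with room-temperature levels near 4 or below. Nrg4, an endocrine factor of brown fat, rose by 0.45 ± 0.13 (adjusted p = 0.0307), a call kept only without cold replicate 3 among the 6 fits without 1 array. Lep, the satiety hormone, had 7.13, 8.65 and 7.83 against 4.70, 7.16 and 5.05, which overlap, and its fall of 2.23 ± 0.57 (0.0174) was lost without room-temperature replicate 2 or cold replicate 1 or 3. Adipoq stood at -0.42 ± 0.15 (0.0689, and 0.0296 to 0.0498 under the alternatives where it passed). Falls numbered 1 without room-temperature replicate 2 or cold replicate 1 or 3, and 2 without room-temperature replicate 3 or cold replicate 2.

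Socs2, a feedback inhibitor of cytokine and growth hormone signals, had 6.16, 6.43 and 6.59 against 9.89, 9.67 and 9.71, a 10.3-fold rise (3.36 ± 0.18, adjusted p = 1.11e-06). In the cytokine list 6 of 35 rose and 1 fell, with a median of 0.34. Cxcl13, a B cell chemokine, rose by 1.25 ± 0.25 and the NF-kappaB regulator Nfkbiz by 1.01 ± 0.20, while Cxcl12, a niche chemokine, fell by 0.82 ± 0.20. Il6 was at background on all 6 arrays, between 0.93 and 1.37. The number of rises was 3 without room-temperature replicate 2 or cold replicate 2 or 3. Interferon-induced genes had 4 of 18 that rose and 0 that fell, among them the oligoadenylate synthetase family members Oasl1, Oas2 and Oasl2 and the RNA-binding Ifit1, with rises of 1.01 to 1.39.

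Macrophage markers stood higher beside these. Their mean was 6.23, 5.78 and 6.05 at room temperature and 6.54, 6.87 and 6.64 in the cold, all 12 differences were above 0 and 7 passed. The scavenger receptor Cd163 rose by 1.08 ± 0.18, complement C1qb by 1.16 ± 0.25 and Cd68 by 0.90 ± 0.20, whereas Adgre1 stood at 0.26 ± 0.23 (adjusted p = 0.537) and Mrc1 at 0.24 ± 0.20 (0.487). The number that rose was 3 without room-temperature replicate 2 or cold replicate 2 and 4 without room-temperature replicate 3 or cold replicate 1. Their part in the cytokine and interferon values was not tested. The mean of 10 T cell markers was 2.82 to 3.10 against 3.23 to 3.88, near background. All 10 of their differences were above 0, 2 rose and 0 fell, and 1 of the 10 had a mean signal of at least 5. Il7r rose by 2.04 and passed in all 6 fits without 1 array, and Cd8a rose by 0.66 and passed in 4. The mean of 8 B cell markers was 1.98 to 2.30 and that of 10 neutrophil markers 1.80 to 2.06 over the 6 arrays, also near background, and 0 of either list passed.

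Of 28 matrix genes 8 rose and 1 fell. The laminin chain Lamb1 had 8.15, 7.65 and 7.84 against 9.37, 9.34 and 9.14, the collagen IV chains Col4a1 and Col4a2 rose by 1.30 ± 0.28 and 1.06 ± 0.22 and elastin, Eln, by 1.14 ± 0.20, while the laminin chain Lama4 fell by 0.84 ± 0.14. The rises numbered 4 without room-temperature replicate 2 or cold replicate 3, and 5 without cold replicate 2 or with the muscle covariate. Of 27 cell cycle genes 5 rose and 3 fell, with Ccnd1 rising by 1.71 ± 0.31, Ccnb2 by 1.33 ± 0.24 and the replication helicase subunit Mcm4 falling by 0.77 ± 0.14. Rises numbered 3 without cold replicate 2, and falls 1 without cold replicate 3.

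Among other routes of heat production, creatine and calcium cycling genes had 2 of 16 that rose and 1 that fell. The fall was that of Gamt, the methyltransferase that completes creatine synthesis (-0.52, adjusted p = 0.0472), a call kept without cold replicate 1 and lost without any other array (0.0543 to 0.19). Atp2a2, the calcium pump of the reticulum, rose by 0.89 ± 0.14 and the creatine kinase Ckb by 0.83 ± 0.18. Its muscle relative Atp2a1 had 4.02, 9.14 and 1.43 against 7.81, 10.22 and 10.72, high on the arrays where the muscle mean was high, with a difference of 4.72 ± 2.12 (adjusted p = 0.163, and 0.0469 without room-temperature replicate 2). RNA-binding and splicing genes linked to cold had 6 of 15 that rose and 1 that fell. Hnrnpu rose by 0.75 ± 0.12 (0.48, adjusted p = 0.0673, over the mean of its probe sets), and the splicing factors Clk4 and Tra2a by 0.77 and 0.86. Cirbp, a cold-inducible RNA-binding protein gene in cooled cells, had 5.17, 4.81 and 5.62 against 4.06, 3.80 and 3.58, a fall of 1.39 ± 0.39 (0.0269). The Cirbp call was lost without room-temperature replicate 1 (0.0655) or 3 (0.0968) or cold replicate 2 (0.0731) or 3 (0.0944). Of 17 Kruppel-like factors 0 passed by limma, with 3 at an unadjusted p under 0.05.

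The cold response of the KO arrays was set beside that of WT by the interaction in limma, and 6 genes passed (0.0271% of all genes), with 2324 at an unadjusted p under 0.05. Dio2 rose by 6.69 on the log2 scale in KO against 3.28 in WT. Tmem82 rose by 4.64 against 1.86, and Aloxe3, an epidermal-type lipoxygenase, by 2.82 against 0.64. Socs2 went the other way, with a rise of 1.49 in KO against 3.36 in WT. Zbtb7b itself did not pass in WT, with 4.47, 4.52 and 4.76 at room temperature and 4.36, 4.26 and 4.63 in the cold (-0.16 ± 0.16, adjusted p = 0.566).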

How the data were processed

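RNA of brown fat was labelled with biotin and read on whole-transcript arrays, 3 in each of 4 groups, per the labels' protocols. The deposited values are log2 signals on which the submitters' processing notes name oligo, RMA and limma, with no versions. RMA subtracts background, gives all arrays the same distribution and fits 1 value per probe set, so a change in total RNA per cell is not visible in it. Scanner files were not used here. Groups were taken from titles and characteristics, where the description field names another tissue and gene.

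Of 41345 probe sets, 23521 carry exactly 1 symbol in the platform annotation, 1814 several and 16010 none. The brightest over all 12 arrays stands for a gene (1082 genes had several), which gave 22180 genes, dim ones included. The linear model of limma 3.58.1 (R 4.3.3) held a mean for each group over the 12 arrays, with eBayes, and the contrast was WT cold minus WT room temperature. Tests were two-sided, and an adjusted p under 0.05 passed. An SE is the fit's own, from the spread shared by all groups. Tested on simulated data of the same layout and number of genes, the fit recovered 71 of 100 genes changed by 1 and 94 of 100 changed by 2 on the log2 scale, with 9 false calls. Far fewer genes were changed there than the 3852 that passed here, and spreads were shuffled among genes. Its recovery therefore need not hold for the real comparison.

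Lists (31 of pathways and 13 of cell types, 842 of 931 entries measured) were counted, with no list test, and motifs were matched by exact letters. The members, lists and tests were chosen with earlier results of these data known. The rule named the 15 largest rises and falls that passed, did not overlap and reached a mean of 5, without predicted genes, small RNAs, pseudogenes or odour and pheromone receptors. It also named up to 5 genes of smallest p per list, 9 fixed genes led by Ucp1, Dio2 and Ppargc1a, and the 5 of smallest interaction p. Other genes were chosen after their values were seen, such as Nr4a2, Nr4a3, Fos, Fasn, Acly, Pdk4, Lpl, Cry1, Nr1d1, Per1, Hlf, Tef, Perm1, Irf4, Cirbp, Hspa8, Hspb8 and the members that did not pass or that fell alone in a list.

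Alternatives were all probe sets singly, their mean per gene, a mean signal of at least 5, cyclic loess, median centring, a trended robust spread, limma's array weights, a block of the title's replicate number, a test against a change of 1.5-fold, the 6 WT arrays alone, the muscle mean as a covariate and leaving out each array.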

Additional observations from a re-analysis of the deposited data

Results flagged for a closer look

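The test of the difference between the WT and KO cold responses singled out 5 genes of those named here. The WT minus KO difference of the 2 responses was -3.41 for Dio2, -2.78 for Tmem82 and -2.18 for Aloxe3 on the log2 scale, so that all 3 rose more in KO. For Dio2 the KO level at room temperature was below that of WT, and such a difference does not say how the cold levels compare. It was -1.93 for Olfr519, an olfactory receptor gene near background on all WT arrays, which fell by 0.66 in WT and rose by 1.27 in KO. It was 1.87 for Socs2, which rose more in WT.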

How the results depend on the processing

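The number of genes that passed was 3575 to 4846 under the alternatives without the size threshold and with all arrays of the WT groups, against 3852. Against a change of 1.5-fold it was 505, with 257 that rose and 248 that fell. The share that rose was 54%, and 49.1% after cyclic loess and 49.6% after median centring. Without 1 WT array 2676 to 3274 genes passed (1442 to 1742 rose and 1234 to 1532 fell), and 68.3% to 75.9% of the calls remained; each such fit has 1 array fewer in a group of 3. The interaction gave 6 genes, and 3 with the mean of probe sets, 26 with a mean of at least 5, 19 with the trended robust spread, 22 with array weights, 1 against 1.5-fold, 10 with the muscle covariate and 3 to 20 without 1 array. Replicate numbers were shared by WT groups without a stated meaning, and arrays of the same number did not deviate together (r of 0.06, 0.07 and -0.12). With the replicate number as a block 3660 genes passed and 91% of the calls remained. Of 216 named genes that passed, 173 did so in all 6 fits without 1 WT array. Some genes that did not pass did so under other settings, such as Lpl, Per1 and Pnpla2 (lowest adjusted p 0.00666, 0.0457 and 0.0484). With a mean of at least 5 the falls among thermogenic genes numbered 7 and the rises among secreted factors 1, and over the 6 WT arrays alone the rises among cytokines and chemokines numbered 13 and those among glucose genes 7. Signs turned for genes that had not passed: Pdk4 stood at -0.005 after cyclic loess and after median centring and at -0.024 to 0.059 without 1 array. With the muscle covariate Nr4a2 stood at -0.214 and Dnajb4 at 0.023, and without 1 array Dnajb4 at -0.150 to 0.025 and Fos at -0.054 to 0.847. The cause was not tested. With 3 arrays per group, changes of 1 on the log2 scale are missed in part, and genes below a signal of about 3 cannot be told from background.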

Other observations

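Gene families outside the lists were picked by symbol after the data were seen and are given as counts and some members, with no test. Of 9 genes of the cytosolic chaperonin, the ring that folds actin and tubulin, 7 rose and 0 fell, with Cct3 at 7.77, 7.54 and 7.79 against 9.42, 9.08 and 9.01 and Cct2 rising by 1.15 ± 0.13. Of 34 ribosome biogenesis factors 22 rose and 0 fell, with a median of 0.76. Among them the nucleolar methyltransferase Nop2 had 7.26, 7.05 and 7.09 against 9.19, 8.94 and 9.06, and Noc3l, Utp14a and Bysl rose by 1.81, 1.74 and 1.70. The shares over all genes were 9.39% for rises and 7.98% for falls, and 20% and 14.4% of genes whose signal averaged at least 5.

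Of 32 aminoacyl-tRNA synthetases 13 rose and 2 fell. The mitochondrial Cars2 had 6.37, 6.25 and 6.50 against 9.14, 9.28 and 9.17, a 7.06-fold rise with the smallest adjusted p of any gene named here (2.74e-07), and the cytosolic Yars rose by 1.32 ± 0.22, while the mitochondrial Iars2 fell by 0.85 ± 0.12. Of 12 acyl-CoA thioesterases 3 rose and 2 fell, with Acot4 and Acot6 rising beside Acot5 by 1.98 and 1.21, Acot11, known as brown fat-inducible thioesterase, falling by 1.12 ± 0.17, and Acot13 falling by 0.61 ± 0.19, a call lost in 4 of the 6 fits without 1 array. Among 46 mitochondrial carriers of the Slc25 family 8 rose and 7 fell, with Slc25a34 rising by 1.77 ± 0.41 and Slc25a48 falling by 1.60 ± 0.24. Their median was -0.02. The counts of the carriers and of the thioesterases lie near the shares of genes whose signal averaged at least 5, so they do not set these families apart.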
